A study of Mus musculus with 24 samples.

Results

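Growing spinal cord neurospheres are floating balls of progenitor cells, and their transcriptome was measured on 4 of the 24 arrays of the series, 1 for each of 4 cultures that the labels tie to 4 mice. These arrays were chosen by their titles, which give the growing condition with EGF and FGF2, and no measured value was used to choose them. The study profiled the central canal region of the mouse spinal cord after sham surgery or injury, and neurospheres in different media, and the 12 neurosphere arrays shared 1 table of values. The growing cultures came from the spinal cord of adult mice, of the CD1 strain in the study's methods, and were kept in medium with EGF, FGF2 and heparin; no transgene, deletion or injury is given for them. The labels give passage 1, whereas the methods state a later passage. EGF and FGF2 drive the division of neural progenitors, and heparin helps FGF2 to bind its receptor. All 4 cultures had been selected by that medium, which limits them as a picture of the cells that lie around the central canal.

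Neural stem cells of the adult spinal cord are found among the ependymal cells that line its central canal, which rarely divide and carry motile cilia. In culture with growth factors their descendants divide, float as spheres and can be led to form astrocytes, oligodendrocytes and a few neurons. Such cells carry a mixed set of genes, with intermediate filaments and lipid-binding proteins of radial glia, growth factor receptors, transcription factors of the neural tube and the machinery of division.

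Signal is given on the log2 scale and as a percentile, the rank of a gene among the 22180 genes of the same array, from 0 to 100. A gene was measured by a set of short probes, and genes differ in how strongly their probes bind, so a percentile places a signal on the array and does not count transcripts. A level below which signals were not read was taken from 1394 odorant and pheromone receptor genes of the nose, as the 95th percentile of their log2 signals, which was 4.03 to 4.11 on the 4 arrays and lay at percentile 42.4 to 43.8 of all genes. On all 4 arrays 11848 of the 22180 genes, or 53.4%, were above this nasal receptor level, 8673 (39.1%) were above it on no array, and 1659 (7.48%) were above it on 1 to 3 arrays. Of the receptor genes themselves 45 were above it on all 4. The counts of members given for each gene list are read beside the 53.4% of all genes. A stricter level was the 99th percentile of the receptor genes (log2 5.12 to 5.52). Of the 22180 genes 7690 were above it on all 4 arrays. List counts that fell by 2 times or more at that level are also given for it, and are read beside 7690 of 22180. A signal under the level does not show that a gene was silent, and in a culture of mixed cells fewer cells of a type and less RNA per cell cannot be told apart.

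The 4 marker genes of neural progenitors stood near the top of every array. Fabp7, the brain fatty acid binding protein of radial glia, had log2 signals of 11.68, 11.55, 11.67 and 11.49 in cultures 1 to 4, and only 3 other protein-coding genes had a mean percentile as high, once ribosomal, histone and mitochondrially encoded genes were left out. Egfr, the receptor of the EGF in the medium, had log2 signals of 9.69, 9.52, 9.71 and 9.52, at percentile 98.7 ± 0.20 (SD, n = 4). Sox2, the transcription factor that keeps neural cells undifferentiated, gave log2 signals of 9.18, 8.78, 9.13 and 8.77. Nestin (Nes), the intermediate filament protein of neural progenitors, was the lowest of these markers, with log2 signals of 7.85, 7.98, 7.88 and 8.14, at percentile 91.2 ± 1.17. Within each of these genes the 4 cultures lay less than 0.5 log2 units apart, so the markers fixed for the labelled cell type were high in every culture.

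The markers differed in the sequence just before their starts. Olig2 and Pdgfra were added, a high oligodendrocyte precursor gene and another near the level, though not the lowest of its list. The 150 bases before the start of the markers and of these genes were read from RefSeq promoter windows of GRCm38.p6. They are shown 5′ to 3′ on the strand of the gene with CG dinucleotides in capitals, because the number of CG dinucleotides differed between genes that were high and low on the arrays.
Nes: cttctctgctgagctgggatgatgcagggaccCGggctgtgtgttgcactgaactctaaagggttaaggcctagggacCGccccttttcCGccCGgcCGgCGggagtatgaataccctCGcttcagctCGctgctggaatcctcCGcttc
Sox2: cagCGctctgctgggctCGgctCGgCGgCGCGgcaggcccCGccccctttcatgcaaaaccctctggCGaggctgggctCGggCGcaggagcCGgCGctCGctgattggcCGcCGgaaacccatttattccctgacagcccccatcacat
Fabp7: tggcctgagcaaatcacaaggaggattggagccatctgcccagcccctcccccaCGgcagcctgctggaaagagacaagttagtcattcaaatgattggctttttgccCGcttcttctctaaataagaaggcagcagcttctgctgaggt
Egfr: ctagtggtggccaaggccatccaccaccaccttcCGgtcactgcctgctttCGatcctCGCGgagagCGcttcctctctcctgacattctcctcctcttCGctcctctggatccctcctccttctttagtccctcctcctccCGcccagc
Olig2: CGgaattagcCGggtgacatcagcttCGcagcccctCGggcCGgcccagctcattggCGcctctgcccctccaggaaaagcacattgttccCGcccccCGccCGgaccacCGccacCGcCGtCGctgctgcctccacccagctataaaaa
Pdgfra: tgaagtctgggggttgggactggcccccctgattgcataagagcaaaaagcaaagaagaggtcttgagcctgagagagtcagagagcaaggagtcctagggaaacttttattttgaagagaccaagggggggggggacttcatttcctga
The stretch of Nes lies at chr3:87970943-87971092, that of Sox2 at chr3:34649845-34649994, that of Fabp7 at chr10:57784773-57784922, that of Egfr at chr11:16752053-16752202, that of Olig2 at chr16:91225400-91225549 and that of Pdgfra at chr5:75152101-75152250, all on the plus strand. In the 250 bases before the start, Sox2 had 27 CG dinucleotides, Olig2 22, Nes 15 and Egfr 11, whereas Fabp7 and Pdgfra had 4 each. Fabp7 was thus among the highest genes on the array with as few CG dinucleotides in those 250 bases as Pdgfra, which was near the level. In the 150 bases shown, Fabp7 had 2 and Pdgfra 0. A window was found for 16918 of the 22180 genes, and over these the median was 10 CG dinucleotides. It was 19 for the 1743 genes with a mean percentile over 90, 16 for the 9347 genes above the level on all 4 arrays and 3 for the 6358 genes above it on none. The motif TATAAA, searched on both strands of the same 250 bases, was in 11.9% of all these windows, in 5.45% of those of genes with a mean percentile over 90 and in 20.3% of those of genes above the level on no array. The motif GGGCGG, also on both strands, was in 43.3% of all windows, in 66.0% of those over percentile 90 and in 19.6% of those above the level on none. CCAAT, on both strands, was in 35.6% of all windows, and in 36.5% and 34.2% of the same sets. Among lists described below, CCAAT was in 78.3% of the 23 windows of mitosis genes, 73.9% of the 23 of DNA replication genes and 88.2% of the 17 of cholesterol synthesis genes, against 60.0% of the 20 of Hox genes, 40.0% of the 20 of astrocyte genes and 36.1% of the 36 of respiratory chain genes.

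The genes with the highest signals, leaving out ribosomal, histone and mitochondrially encoded genes, mixed glial genes with those of protein synthesis and energy supply. Brain creatine kinase (Ckb), which buffers ATP, was the highest, with log2 signals of 11.90, 11.81, 11.83 and 11.83. Among the 25 highest were the translation factors Eef1a1, Eif4a1 and Eef2, the mitochondrial ADP/ATP carrier Slc25a5, the ATP synthase subunit Atp5b, the glycolytic enzyme Gapdh, the chaperones Canx and Hspa8 and the iron store protein Fth1. Genes of progenitors and glia in the same group were Fabp7, the tetraspanin Cd81, the filament protein vimentin (Vim), the neural membrane protein Gpm6a, the matrix protein tenascin C (Tnc), the receptor phosphatase Ptprz1 and cyclin D2 (Ccnd2). All 25 had mean percentiles of 99.8 or more.

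**Figure D1:**
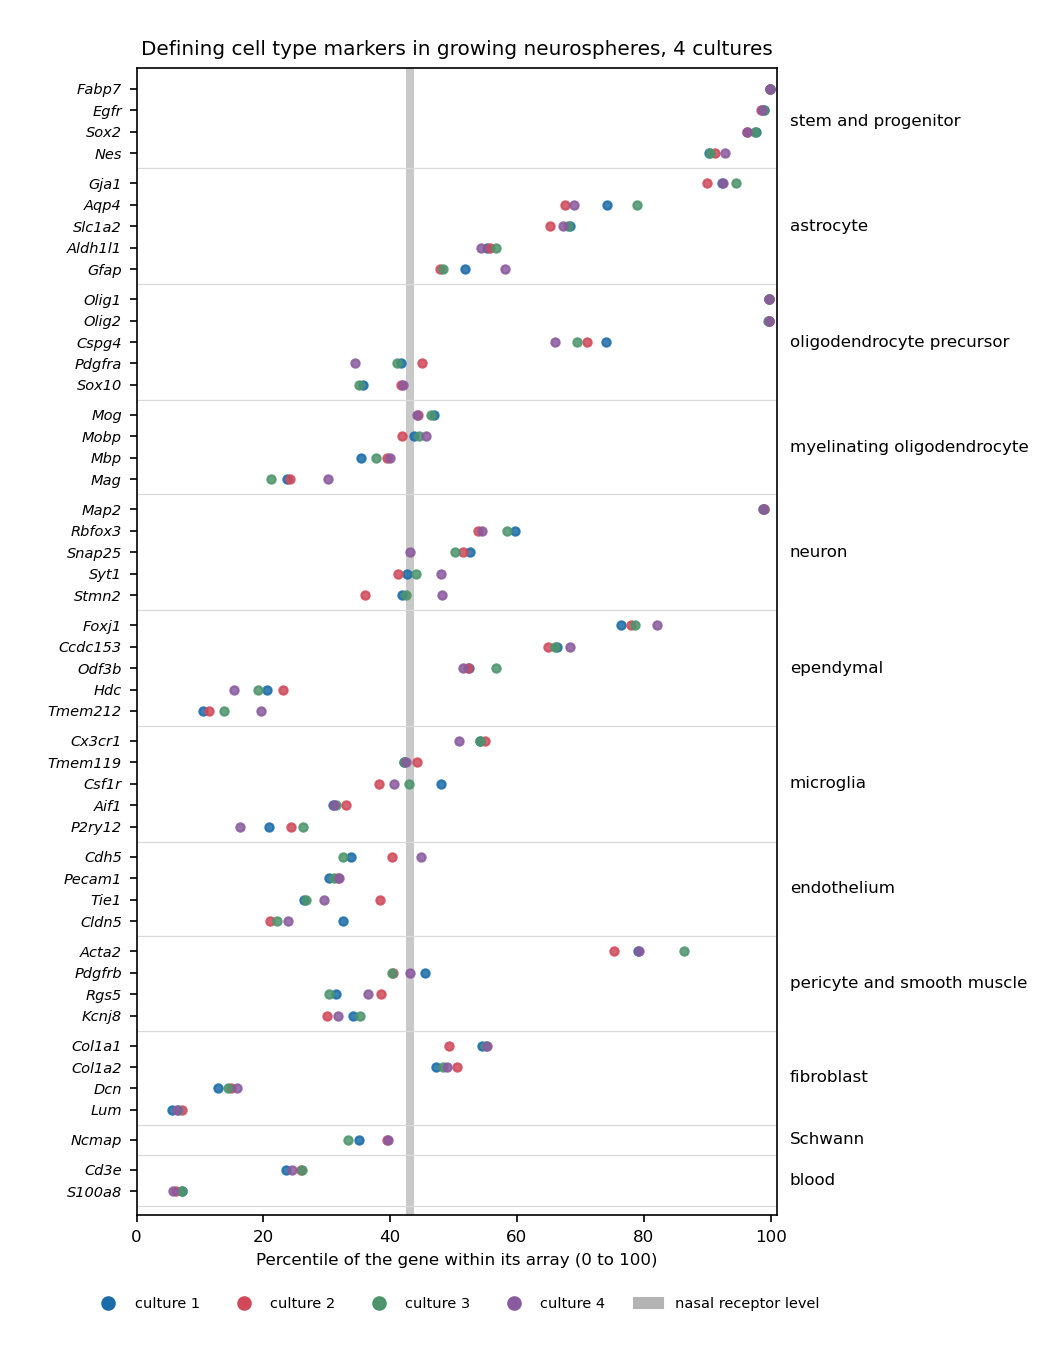
Percentile within the array (0 to 100) of the defining markers of 12 cell types in the 4 growing neurosphere cultures, with 1 point per culture, and the nasal receptor level as a grey band at percentile 42.4 to 43.8. The stem and progenitor markers, Olig1, Olig2 and Map2 sit at the right edge in every culture, whereas no marker of endothelium, blood or Schwann cells is above the band in all 4 cultures.

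Of 39 measured genes of neural stem cells and progenitors 36 were above the nasal receptor level on all 4 arrays, and the median percentile of the list was 85.9 ± 1.39 (SD, n = 4). The highest were Fabp7, Vim, Tnc, Ptprz1, the adhesion receptor Adgrg1, the integrin subunit Itgb1 that binds matrix, the glutamate transporter Slc1a3 and Egfr. The lowest were Id4, a partner of helix-loop-helix factors, at percentile 53.2 ± 4.52, Fut4, which makes the LewisX sugar of embryonic progenitors, at 42.2 ± 0.63, Nr2e1 (Tlx), a nuclear receptor of forebrain stem cells, at 31.7 ± 2.13, and Lin28b, an RNA-binding protein of early embryos, at 20.1 ± 2.04. Fut4 was above the level on 1 array, and Nr2e1 and Lin28b on none. Of 10 pluripotency genes only Klf17 and Fgf4 were above it on all 4, at percentiles 50.8 and 47.9, with 0 above the stricter level, and the median of the list was 32.3 ± 1.03. Pou5f1 (Oct4) stood at percentile 45.8 ± 2.73 and Nanog at 38.2 ± 4.67.

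Sox factors share a DNA-binding domain, and the groups of the family mark successive states of neural cells. Of 19 members 14 were above the level on all 4 arrays. Sox2 (percentile 97.0) and its close relatives Sox3 (80.3) and Sox21 (76.3) were accompanied by Sox9 (93.4), Sox6 (92.3) and Sox8 (89.4) of the glial lineage and by Sox4 (96.1) and Sox11 (85.1), known from differentiating cells. Sox10, the factor of oligodendrocytes and neural crest, was at log2 3.75, 3.97, 3.73 and 4.04, above the level in none of the 4 cultures. Sox7 and Sox18 of blood vessels and Sox30 of the testis were also under it, at percentiles 34.6, 23.4 and 31.8.

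Hox genes give cells of the body axis their position, and their numbers run with that order, low numbers being used up to the hindbrain and high numbers only towards the tail. Of 36 measured Hox genes 24 were above the level on all 4 arrays, and 10 above the stricter level. The first share was larger than that of all genes, and the second was smaller than the 7690 of 22180 for all genes. The counts by group and cluster that follow are for the nasal receptor level and not the stricter one. In paralogue groups 6 to 9, 11 of 12 were above it, with a median percentile of 70.0. In groups 4 to 5 this was 5 of 6 with a median of 56.9, in groups 1 to 3 it was 4 of 7 with 48.9, and in groups 10 to 13 it was 4 of 11 with 33.5. Hoxa6 was the highest Hox gene, at log2 8.79, 8.54, 8.77 and 8.42, followed by Hoxa5 at 8.26, 8.11, 8.35 and 7.89. Hoxa9 gave 7.04, 7.03, 6.94 and 6.85, and Hoxa7 was at percentile 82.3 ± 2.42. These genes are used from the neck to the trunk. Hoxa2, known from the hindbrain, was the fifth, at 6.48, 6.72, 6.28 and 6.20, and Hoxc10, the highest of groups 10 to 13, gave 5.91, 6.31, 5.72 and 6.20. Those 5 genes were above every Hox gene of groups 10 to 13 in all 4 cultures, Hoxa2 by under 0.01 log2 units in culture 4.

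Among the caudal groups, Hoxc10 (percentile 70.4), Hoxa10 (56.7), Hoxd10 (51.9) and Hoxc12 (50.5) were above the level on all 4 arrays. Of these only Hoxc10 was above the stricter level. Hoxa13, Hoxb13, Hoxc13 and Hoxd13, the genes of the tail end, were at percentiles 31.8, 36.6, 33.1 and 24.4 and above the nasal receptor level on none. By cluster, 8 of 9 genes of Hoxa, 8 of 10 of Hoxb, 6 of 9 of Hoxc and 2 of 8 of Hoxd were above the level on all 4. Of 11 genes of Hox cofactors and caudal factors 8 were above the level on all 4 arrays, and 4 above the stricter level. Among the proteins that bind DNA together with Hox proteins, Meis1 was at percentile 92.8, Meis2 at 88.1 and Pbx3 at 74.6. Cdx1 and Cdx4, which act upstream of Hox genes in the embryo, were at 31.2 and 27.5.

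**Figure D2:**
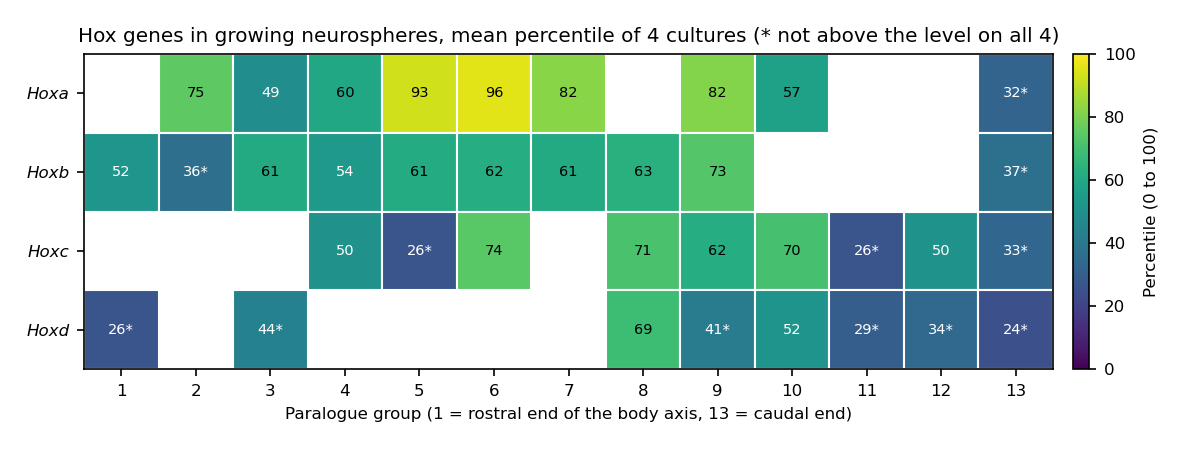
Mean percentile (0 to 100, colour and number) of each Hox gene over the 4 growing neurosphere cultures, with the 4 clusters as rows and the paralogue groups 1 to 13 as columns; blank squares hold no gene or a gene not analysed here. The brightest squares are Hoxa6 and Hoxa5, and the asterisks, for genes not above the nasal receptor level on all 4 arrays, gather in groups 11 to 13 and in the Hoxd cluster.

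Genes that divide the neural tube from back to belly were split. Olig1 and Olig2, the factors of the motor neuron and oligodendrocyte domain, were the highest of the 30 measured, at log2 10.66, 10.71, 10.66 and 10.61 and at 10.48, 10.70, 10.39 and 10.69. Next came Dbx2 of the middle of the neural tube (percentile 83.8 ± 2.18), Irx3 (74.1), Nkx6-1 of the ventral tube (73.2), Irx5 (73.1), the Hedgehog effector Gli3 (68.6) and Pax6 (67.0). In all 13 of 30 were above the level on all 4 arrays. Gsx2, Msx2 and Zic4, known from dorsal cells, were at percentiles 24.1, 23.8 and 19.7, and Shh, the ventral signal, was at 18.3. Zic1, a dorsal factor named here after its values were seen, was the least even of them, with log2 3.73 and 3.77 in cultures 1 and 2, under the level, and 4.78 and 5.77 in cultures 3 and 4, above it. Zic2, named for the same reason, gave 3.75, 3.70, 4.30 and 4.32 in the same order.

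Factors of the forebrain and midbrain were low. Of 18 measured 2 were above the level on all 4 arrays (1 above the stricter level), Lhx2 of the cortical primordium at log2 5.45, 6.02, 5.91 and 6.69 and Dlx2 of the ventral forebrain at percentile 50.7 ± 1.67. Otx2, which sets the border of the midbrain, was at percentile 37.9 ± 4.13 and under the level in all 4 cultures, and En1, Eomes, Emx2 and Tbr1 were at percentiles 18.5, 16.6, 15.4 and 8.94. The median of the list was 32.3 ± 0.82, against 55.6 ± 0.56 for the Hox genes on the same percentile scale.

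Astrocyte genes were the lineage list with the highest median, at percentile 91.9 ± 1.15, and 23 of 25 were above the level on all 4 arrays. Many of the highest are also used by radial glia, such as the glutamate transporter Slc1a3 (percentile 99.5), the nuclear factors Nfib (99.4) and Nfia (97.9), Mlc1 of astrocyte end feet (99.2), the matrix protein Sparcl1 (98.9), aldolase C (Aldoc, 98.4), the acyl-CoA synthetase Acsbg1 (97.4) and the bicarbonate transporter Slc4a4 (97.0). Of the markers fixed for astrocytes, the connexin Gja1 was at log2 8.10, 7.84, 8.42 and 8.07, at percentile 92.3 ± 1.82, and the other 4 stood lower. The water channel Aqp4 was at log2 6.35, 5.81, 6.73 and 5.86, the transporter Slc1a2 at percentile 67.2 ± 1.40 and Aldh1l1 at 55.5 ± 0.95. Gfap, the filament of mature and reactive astrocytes, was at log2 4.55, 4.27, 4.34 and 4.98, above the level in each culture by less than 1 log2 unit and above the stricter level in none. The connexins Gjb6 and Gjb2, unlike Gja1, were at percentiles 25.1 and 29.7, above the level on no array.

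Oligodendrocyte precursor genes ranged over most of the array, with 8 of 19 over percentile 90. Ptprz1, Olig1 and Olig2 were at percentile 99.7 or more, the sulphatase Sulf2, which trims heparan sulphate, at 99.3, the proteoglycans brevican (Bcan) and versican (Vcan) at 95.6 and 95.5, Lhfpl3 at 94.0 and Sox6 at 92.3. Pdgfra, the PDGF receptor that defines these precursors, had log2 signals of 4.01, 4.12, 3.97 and 3.74 and was above the level in culture 2 only. Sox10 was above it in no culture, as were Neu4 and Matn4, at percentiles 33.9 and 24.1. The proteoglycan NG2 (Cspg4), the other surface marker of these cells, was at log2 6.34, 6.10, 5.95 and 5.62. In all 14 of 19 were above the level on all 4 arrays, with a median percentile of 70.1 ± 3.38.

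Genes of myelinating oligodendrocytes were above the level in 8 of 16 cases, and in 2 above the stricter level. The highest were Cnp, an early enzyme of the lineage, at percentile 73.8, Ugt8a, which makes galactosylceramide, at 71.6, and Aspa at 62.5. The myelin protein genes Mbp, Opalin and Mag were at percentiles 38.2, 25.2 and 24.9 and Ermn at 5.52, each above the level on no array, whereas Mog, of the same sheath, was at 45.5 ± 1.41, just above it in all 4.

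Neuronal genes had a median percentile of 44.1 ± 2.18, near the level, and 12 of 28 were above it on all 4 arrays, but only Map2 and Dlg4 above the stricter level. Map2, a microtubule protein of dendrites, stood apart from the rest, with log2 signals of 9.75, 9.74, 9.62 and 9.65, at percentile 98.9 ± 0.11. The synaptic scaffold Dlg4 was next at percentile 72.4, followed by the RNA-binding proteins Elavl3 (62.0) and Elavl4 (59.0). Tubb3, the tubulin of neurons, gave log2 4.85, 5.40, 5.16 and 4.75, and Rbfox3 (NeuN) was at percentile 56.6 ± 2.89. Snap25 and Syt1 of synapses and Stmn2 of growing axons were at percentiles 49.3, 44.0 and 42.1. Enzymes and carriers of transmitters were under the level in every culture, with Chat of cholinergic neurons at percentile 24.5, Gad1 of GABA neurons at 23.0 and Slc17a6 of glutamate neurons at 22.6. The neurofilament gene Nefm was the lowest of the list, at 20.2 ± 5.26. Of 8 genes known from cerebrospinal fluid-contacting neurons, Pkd2l1, their channel, was at percentile 21.0 and Gata2 at 23.1, whereas Gata3 was at 54.0. On all 4 arrays 4 of the 8 were above the level, a share near that of all genes. At the stricter level this was 1 of 8, a smaller share than that of all genes.

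Of 41 measured ependymal and motile cilium genes 22 were above the level on all 4 arrays, a share near that of all genes. Above the stricter level were 8, Foxj1 among them, a smaller share than the 7690 of 22180 for all genes. The median percentile of the list was 46.8 ± 1.08. Foxj1, the main switch of motile cilia, was at log2 6.53, 6.69, 6.71 and 6.97, and the RFX factors, which act on cilium genes, were at percentile 98.2 ± 0.48 (Rfx4), 85.5 ± 1.05 (Rfx3), 72.0 ± 1.05 (Rfx1) and 63.7 ± 2.19 (Rfx2). Myb was at percentile 75.4, Trp73 at 49.7 and Mcidas, named after its values were seen, at 52.4. Genes of the cilium itself and of its assembly lay on both sides of the level. Dnah11, a dynein heavy chain, was at percentile 34.7, and Ccdc151, Armc4 and Lrrc6, needed to place the dynein arms, were at 33.8, 29.1 and 10.9, all above the level on no array. Ccdc40, Stk36, Crocc and Wdr19 were above it in every culture, at percentiles 51.2, 60.9, 55.1 and 73.1. The ependymal markers Tmem212 and Hdc were at percentiles 13.9 and 19.5, and Odf3b and Ccdc153 at 53.2 and 66.4.

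Lists for other cells of the spinal cord were above the level in shares under that of all genes, by most for blood, endothelium and microglia and by little for Schwann cells. Of 19 microglia and macrophage genes 4 were above the level on all 4 arrays and 0 above the stricter level, and C1qc, the lysozyme Lyz2, Ctss and P2ry12 were at percentiles 14.04, 18.8, 19.7 and 21.9. The markers Aif1, Csf1r and Tmem119 were at 31.7, 42.4 and 42.8, above the level on 0, 1 and 2 arrays. Cx3cr1, at 53.5 ± 1.80, was the highest of this list. Of 16 endothelial genes 3 were above it (0 above the stricter level), none of them among the 4 defining markers Pecam1 (31.3), Cdh5 (37.9), Cldn5 (24.9) and Tie1 (30.3). For fibroblasts and meninges this was 7 of 17 (2 above the stricter level), with decorin (Dcn) and lumican (Lum) at percentiles 14.5 and 6.45, and for blood cells 0 of 9. Of 14 pericyte and smooth muscle genes 6 were above the level, and 3 above the stricter level. They included Acta2, an actin, at log2 6.75, 6.47, 7.43 and 6.72, while Pdgfrb, Rgs5 and Kcnj8, the other defining markers, were at percentiles 42.3, 34.2 and 32.8. For Schwann cells 5 of 10 were above the level and 2 above the stricter level, with a median percentile of 44.7 ± 2.19. Gap43, which growing glia and axons share, was at 95.5, and Ngfr and Cdh19 were at 34.2 and 16.9. The part of such cells in the values of the other lists was not tested.

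**Figure D3:**
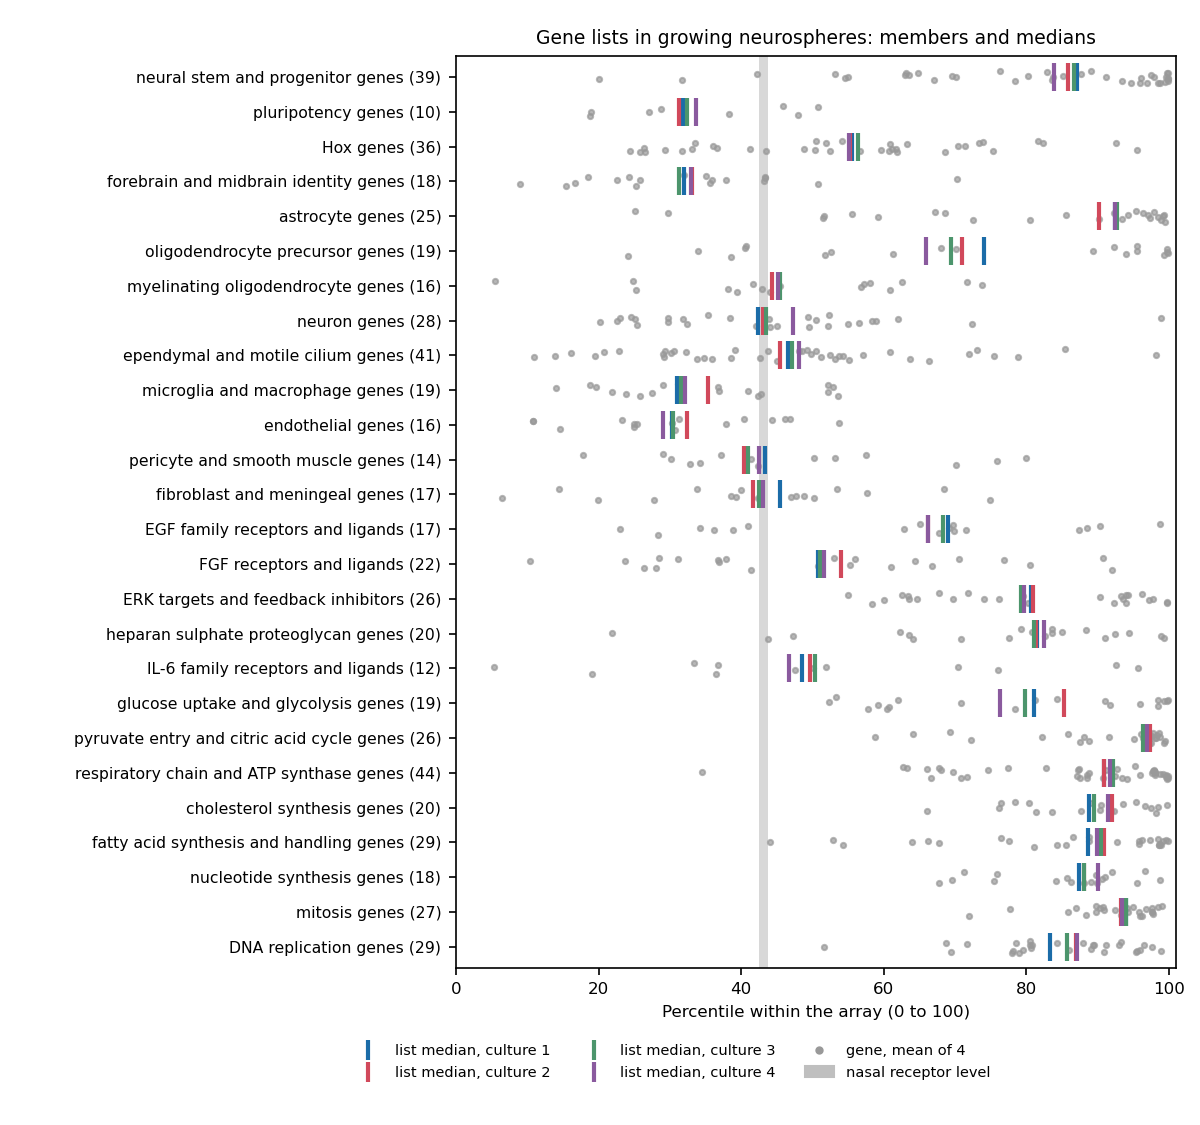
Percentile within the array (0 to 100) of the measured members of 26 gene lists (grey points, mean of the 4 cultures; number of members in brackets) with the list median in each culture (coloured bars) and the nasal receptor level (grey band). Lists of stem cells, astrocytes, metabolism and division lie to the right of the band, and those of microglia, endothelium, pluripotency and forebrain to its left.

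Egfr and Fgfr1, the receptors for the growth factors in the medium, were high, and Egf and Fgf2 themselves were near or under the level. Of 17 measured EGF family genes 11 were above the level on all 4 arrays. After Egfr came its inhibitor Lrig1 at percentile 90.4 ± 1.21, the ligand Hbegf at log2 7.64, 7.77, 7.71 and 7.45, the neuregulin receptor Erbb4 at 7.98, 7.54, 7.66 and 6.98, the ligand Ereg at percentile 71.6 and Erbb2, which pairs with the other receptors, at 69.7. The ligands Nrg4, Nrg3, Btc and Epgn were at percentiles 36.2, 34.2, 28.3 and 23.1. Egf itself, named with Erbb3 after their values were seen, was at log2 3.82, 4.25, 3.71 and 3.78, above the level in culture 2 only, and Erbb3 was at percentile 41.0 ± 2.09.

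Of 22 FGF receptor and ligand genes 12 were above the level on all 4 arrays, and 5 above the stricter level. Fgfr1, the main receptor of FGF2 in neural progenitors, was at log2 8.19, 7.94, 8.12 and 8.02, the decoy receptor Fgfrl1 at percentile 90.7 and Fgfr3 at 80.5. Fgfr2 was at percentile 66.8 ± 5.72. The highest ligand was Fgf1 at 76.8 ± 3.02. Fgf2, named after its values were seen, was at log2 3.96, 3.75, 3.87 and 3.62, under the level in all 4 cultures, and so were Fgf20, Fgf21 and Fgf16 at percentiles 26.4, 23.8 and 10.4. Proteoglycans with heparan sulphate, which carry FGFs to their receptors, had 18 of 20 genes above the level, led by Sulf2, the syndecan Sdc3 (98.96), the chain polymerase Ext1 (94.4), agrin (Agrn, 92.4) and glypican 1 (Gpc1, 91.1).

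Genes that the ERK pathway switches on downstream of these receptors, and that damp it in turn, were all above the level, 26 of 26. Cyclin D1 (Ccnd1) was at log2 10.60, 10.47, 10.75 and 10.57, and Dusp6, the phosphatase of ERK, at 10.61, 10.51, 10.57 and 10.51. The inhibitors Spred1 (percentile 97.8), Spry2 (97.2) and Spry1 (94.2), the factors Etv1 (96.3) and Etv5 (93.9) and Jun (93.9) followed. The lowest members, Spry3, Egr2, Il17rd and Dusp5, were at percentiles 62.6, 60.1, 58.3 and 55.1. Fos, an immediate early gene named after its values were seen, was the least even of the list, at log2 6.89, 6.04, 5.99 and 4.97.

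The IL-6 family of cytokines signals through the shared receptor gp130 (Il6st) joined by a receptor for each ligand. Lifr was at log2 8.63, 8.71, 8.52 and 8.65, and Il6st at 7.95, 8.27, 8.09 and 8.28. Cntfr, which gives CNTF its receptor, was at percentile 76.0 ± 2.16 and Il6ra at 51.9 ± 0.75. Osmr, the receptor of oncostatin M, was at log2 3.78, 3.81, 3.74 and 3.80, under the level in all 4 cultures and with an SD of 0.03. Of the ligands, Ctf1 was at percentile 70.5 ± 1.44 and Lif at 50.1 ± 2.05, whereas Osm, Il11 and Il6 were at 33.4, 19.1 and 5.27, above the level on no array. Cntf was not analysed here. Downstream, Stat3 was at percentile 94.2 ± 0.86, Jak2 at 91.6 and Jak1 at 88.2, and 14 of 18 JAK, STAT and SOCS genes were above the level, with Socs1 and Socs2 at 33.7 and 37.1 among the lowest.

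**Figure D4:**
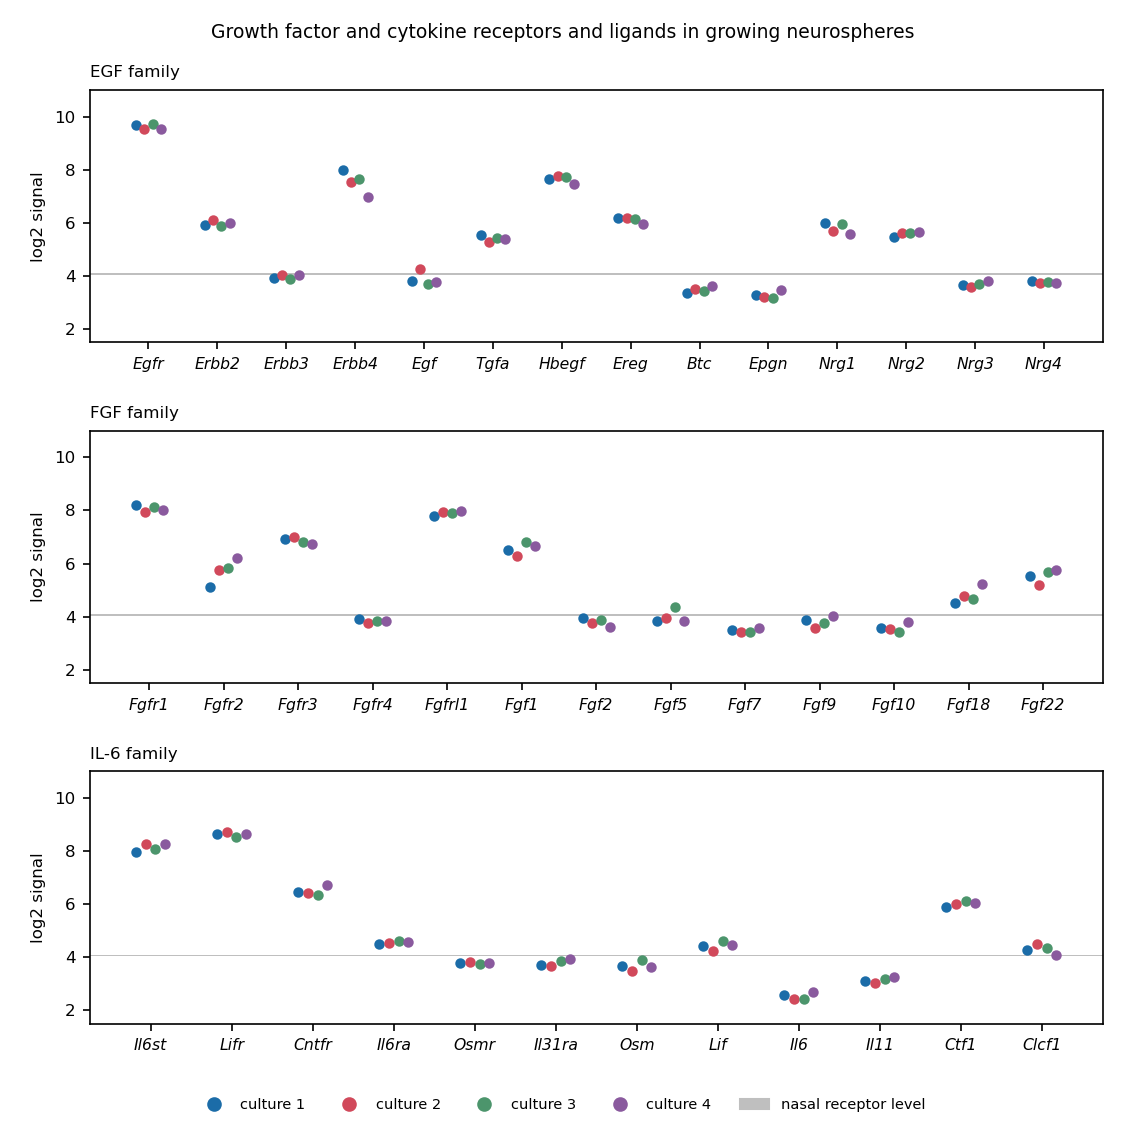
Log2 signal of EGF, FGF and IL-6 family receptors and ligands in the 4 growing neurosphere cultures (1 point per culture) with the nasal receptor level, 4.03 to 4.11, as a grey line. Egfr, Fgfr1, Lifr and Il6st lie well above the line, while Osmr and Fgf2 lie under it and Egf is above it in culture 2 only.

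The Notch and Hedgehog pathways keep progenitors from differentiating and pattern the neural tube, and several of their receptors and mediators were high. The median percentiles of the lists were 67.5 ± 2.08 and 68.5 ± 0.90, near the 67.8 of genes in any list. Over percentile 90 were 5 of 23 Notch and 3 of 14 Hedgehog genes. Of 23 Notch pathway genes 20 were above the level on all 4 arrays, led by the receptor Notch1 (percentile 95.9), the sugar transferase Lfng (95.8), the ligand-like Dner (93.2), the DNA-binding partner Rbpj (92.6) and Notch2 (90.7), with the target Hes1 at 83.8 and Dll4, a ligand of blood vessels, at 37.9. Of 14 Hedgehog genes 11 were above it, with the transducer Smo at 95.03, the coreceptor Cdon at 94.3 and the receptor Ptch1 at log2 8.16, 8.12, 7.90 and 7.85. Shh and the effector Gli1, which are the ligand of the nervous system and a target that rises with the pathway, were at log2 3.13, 3.13, 3.16 and 3.01 and at 3.54, 3.58, 3.70 and 3.61, all under the level. Ptch1, another target, was thus high in the cultures in which Gli1 was not above the level.

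Of 27 BMP genes 19 were above the level on all 4 arrays. The receptor Bmpr2 was at percentile 99.7 and Bmpr1a at 94.1, the mediators Smad4 and Smad5 were at 94.7 and 93.1, and the ligand Bmp7 was at 87.7. Bmp4 and Bmp5 were at 18.6 and 18.1, and the inhibitor Grem1 was at 33.5. Of 40 Wnt genes 28 were above it, with beta-catenin (Ctnnb1) at 99.2, the receptors Fzd3 and Lrp6 at 97.4 and 95.4, the R-spondin receptor Lgr5 at 87.3 and the ligand Wnt7b at 85.5. Wnt3, Rspo3, Lef1 and Notum were at 16.2, 24.8, 25.4 and 30.9. Among receptors for inflammatory signals 14 of 18 were above it, from Ifnar1 at 95.8 and Tnfrsf1a at 82.0 to Tnfrsf1b and Ccr2 at 26.4 and 12.98.

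Of 27 other kinase receptors 16 were above the level on all 4 arrays. The collagen receptor Ddr1 was at percentile 96.1, the IGF receptor Igf1r at 87.5, the neurotrophin receptors Ntrk2 and Ntrk3 at 83.9 and 83.3 and the insulin receptor Insr at 81.2. Musk and Tek, of muscle and vessels, were at 23.3 and 10.9. Receptors of transmitters were above it in 25 of 43 cases, with the GABA receptor subunit Gabrg1 at 97.7, the glutamate receptors Grm5, Gria3 and Grm3 at 97.4, 95.03 and 92.5 and the ATP channel P2rx7 at 90.2. The dopamine receptor Drd1 and the glycine receptor subunit Glra3 were at 16.3 and 10.6. Orphan and adhesion receptors had 24 of 27 above it, among them the integrins Itgav (99.3) and Itgb8 (98.3), the endothelin receptor Ednrb (99.3) and Ncam1 (97.4).

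Metabolic genes were nearly all above the level. Glycolysis and glucose uptake gave 19 of 19 (12 above the stricter level), with Gapdh, Pkm and Pgk1 at percentiles 99.9, 99.7 and 99.3. The carrier Slc2a1, which brings glucose into glia, was at log2 8.47, 8.22, 7.90 and 7.30. Ldha, which makes lactate and is named with Slc2a3 after their values were seen, was at 5.02, 5.33, 5.00 and 4.66, and the neuronal carrier Slc2a3 at 5.93, 5.73, 5.03 and 4.39. Pyruvate entry and the citric acid cycle gave 26 of 26 and the highest median of the 10 metabolic lists, at percentile 96.8 ± 0.42, with citrate synthase (Cs) at 99.5 and malate dehydrogenase (Mdh2) at 99.3. The kinases Pdk1, Pdk2 and Pdk4, which close the entry of pyruvate, were the lowest of the list together with the carboxylase Pcx, at 69.2, 72.2, 58.8 and 64.2. Pdk1 was at 44.7 where the probe sets of a gene were averaged. The respiratory chain and ATP synthase gave 43 of 44, at a median of 91.5 ± 0.64, led by Atp5b, Cox6a1, Uqcrb and Atp5a1. The exception was the ATP synthase subunit gene Atp5g1, at 34.5 ± 2.44.

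Genes that supply lipids and building blocks stood nearly as high. Cholesterol synthesis gave 20 of 20 above the level and a median percentile of 90.5 ± 1.51, with the synthase Hmgcs1 at log2 10.50, 10.68, 10.50 and 10.68 and the regulators Insig1 and Srebf2 at percentiles 98.5 and 95.4. Fatty acid genes gave 28 of 29, with the desaturases Fads2 and Fads1 at 99.6 and 98.9, the elongase Elovl5 at 99.2 and the synthase Fasn at 98.5. Nucleotide synthesis gave 18 of 18, led by the reductase subunit Rrm1 at 98.7. In serine and one-carbon metabolism, 16 of 17, Psat1 was at 95.6 ± 0.28 and Phgdh, the entry enzyme, named after its values were seen, at 72.2 ± 2.98. Of the glutamine and amino acid genes 15 of 17 were above the level, with the aminotransferase Got2 at 99.4 and the glutamine carriers Slc38a1 and Slc38a2 at 98.9 and 98.8, whereas Slc7a11, the cystine carrier, was at log2 3.43, 3.60, 3.47 and 3.23, under the level. Redox genes gave 20 of 21, with thioredoxin (Txn1) at 99.5 and the dismutases Sod1 and Sod2 at 97.6 and 97.2.

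All genes of mitosis and DNA replication that were measured were above the level on all 4 arrays. The 27 mitosis genes had a median percentile of 93.7 ± 0.37, with Top2a, which untangles DNA, at log2 9.93, 9.74, 9.79 and 9.83 and Mki67, the marker of cycling cells, at 9.60, 9.34, 9.55 and 9.36. The lowest of them, Birc5, was still at percentile 71.9 ± 1.60. The 29 replication genes had a median of 85.8 ± 1.76, led by Pcna (98.9) and Mcm4 (97.7), with Orc1, an origin-binding protein, at 51.6. Of 24 G1 regulators 21 were above the level on all 4, and Ccnd2, Ccnd1 and Cdk4 were at 99.8, 99.7 and 99.4. The cell cycle inhibitor p21 (Cdkn1a) stood beside them at log2 9.72, 9.73, 9.77 and 9.67, while Cdkn1c was at percentile 42.3, and Mycn, at 30.0, was under the level where Myc was at 92.3.

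Matrix genes were led by proteoglycans and glycoproteins known from brain matrix. Tnc, neurocan (Ncan), the growth factor pleiotrophin (Ptn), Sparcl1 and Sparc were at percentiles 99.9, 99.8, 99.3, 98.9 and 97.7, with Bcan, Vcan and the protease inhibitor Timp2 at 95.2 or more. The link protein Hapln1, decorin, Thbs4 and midkine (Mdk) were at 11.8, 14.5, 32.9 and 33.5. Of 47 genes 35 were above the level on all 4 arrays.

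Signals from microRNA genes, of which 106 of 478 were above the level on all 4 arrays, come from probes on total RNA, which do not tell a mature microRNA from a longer transcript of the same place. The highest were Mir5099, Mir449b, Mir703, Mir1191 and Mir761, at percentiles 99.9, 99.6, 98.99, 88.6 and 87.1. Mature sequences of 3 of them were found in the RefSeq miRNA table (GRCm38.p6), and are shown because their seeds, bases 2 to 8 and in capitals, differed from each other. Mir5099 and Mir449b, the highest, were not among them.
mmu-miR-703: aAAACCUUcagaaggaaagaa
mmu-miR-1191a: cAGUCUUAcuauguagcccua
mmu-miR-761: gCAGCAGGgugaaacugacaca

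The spread between the 4 cultures was described for the genes above the level on all 4 arrays, whose median SD was 0.14 log2 units. Pearson's r of log2 signals over all genes, which are not independent, was 0.989 to 0.996 between pairs of cultures. It reflects mostly the differences between genes and their probes, so its size does not show how alike the cultures were. Cultures 1 and 3 were the closest pair, with r of 0.996 and 16 of the genes above the level over 1 log2 unit apart. Cultures 2 and 4 came next by this count, with 44 genes, against 66 to 120 genes for the other pairs. The median difference of a gene above the level was 0.103 log2 units between cultures 1 and 3. It was 0.143 between cultures 2 and 4, against 0.163 to 0.182 for the other pairs. Over the 4 cultures 200 genes spanned more than 1 log2 unit and 17 more than 2.

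Small nucleolar RNAs, which guide the modification of ribosomal RNA, varied most. Of 55 such genes above the level on all 4 arrays 36 spanned more than 1 log2 unit, that is 65.5%, against 1.05% of the 11163 protein-coding genes above it. Their median departure from the mean of the 4 cultures was 0.625 log2 units in culture 2 and 0.199 in culture 4, against -0.505 in culture 1 and -0.314 in culture 3. Of all 81 measured, 55 had both cultures 2 and 4 above both cultures 1 and 3. The share of all genes with this order was not counted, so the 55 cannot be read beside it. Over all genes above the level, cultures 1 and 3 and cultures 2 and 4 were also the closest pairs by median difference. Snord1b was at log2 3.78, 7.54, 4.16 and 4.87 and Snord66 at 4.04, 7.29, 4.41 and 6.63. Terc, the RNA of telomerase, ran the other way, at 7.72, 5.40, 7.57 and 4.80, as did the calcium-binding protein gene Chp1 at 6.14, 3.50, 5.86 and 4.10. The percentile of Chp1 moved by 40.1 points where probe sets of several gene names were used too, so its values depend on the probe set. The pseudogene Rps12-ps24, the odorant receptor gene Olfr535 and Gm2959 were also among the 12 widest, each highest in culture 4. In each of them cultures 2 and 4 were above cultures 1 and 3, so this order was not limited to small nucleolar RNAs.

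**Figure D5:**
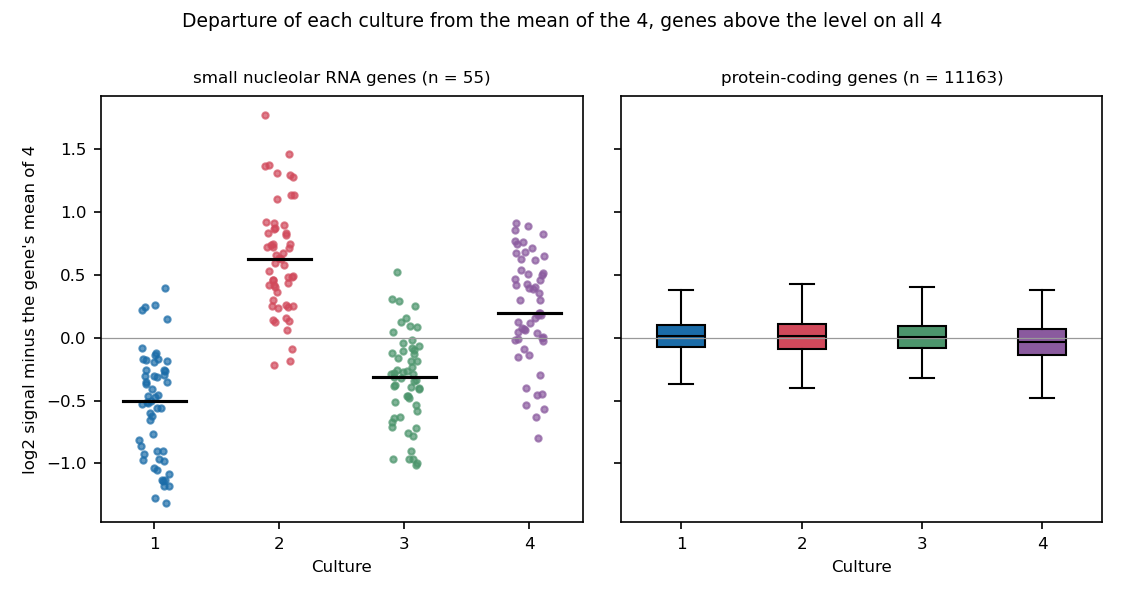
Log2 signal of each gene minus its mean over the 4 cultures, by culture, for genes above the nasal receptor level on all 4 arrays: 55 small nucleolar RNA genes as points with a bar at the median, and 11163 protein-coding genes as boxes (quartiles and median) with whiskers at the 1st and 99th percentile. The small nucleolar RNAs lie high in cultures 2 and 4 and low in cultures 1 and 3, while the boxes of protein-coding genes stay near 0 in all 4.

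Some groups of coding genes also had their own order among the cultures. Such counts were made for all 48 lists, and those given here are a selection. Other lists were also uneven. Of 14 oligodendrocyte precursor genes above the level, 0 were highest and 9 lowest in culture 4. Of 26 genes of pyruvate entry and the citric acid cycle, 15 were highest in culture 2 and 14 lowest in culture 1. Of the 19 glycolysis and glucose uptake genes 18 were highest in culture 1 or culture 2 (8 and 10), where 2960 and 3582 of all 11848 genes above the level were highest, and 11 were lowest in culture 4, where this held for 34.8% of all genes above the level. Vegfa, the vessel growth factor, and Ndrg1, both induced by low oxygen and named after their values were seen, were at log2 7.14, 7.06, 6.21 and 5.44 and at 6.72, 6.00, 5.47 and 4.82, with culture 1 highest and culture 4 lowest. Of the 13 hypoxia and creatine genes above the level, to which both belong, 6 were highest in culture 1 and 6 lowest in culture 4. Of the 43 respiratory chain genes above the level 26 were lowest in culture 1, where this held for 21.6% of all genes above it, and of the 20 cholesterol genes 18 were highest in culture 2 or culture 4 (10 and 8), where this held for 30.2% and 21.3% of all genes above the level. No test was made of these orders, since 1 array stood for each culture.

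Genes of the Y chromosome were above the level in every culture. Eif2s3y was at log2 7.70, 7.67, 7.60 and 7.45, Uty at 7.07, 6.58, 7.10 and 6.39, and Kdm5d at 6.53, 6.41, 6.49 and 6.21, while Xist, the RNA of the silent X chromosome of females, was at 2.85, 2.54, 2.81 and 2.74. The Y genes were thus above the level and Xist was under it in all 4 cultures.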

How the data were processed

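Total RNA of 4 growing neurosphere cultures was hybridized to 1-colour arrays. The authors deposited RMA values on the log2 scale, background-corrected, normalized over the 12 neurosphere arrays and summarised per probe set; RMA and Affymetrix Expression Console 1.2.1 are named in the submitters' processing notes. RMA pulls the arrays to a common distribution, so differences in total RNA per cell are not visible. A genome build for the probes is not given in the sources. The table of the central canal arrays was not used.

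Of 41345 probe sets, 190 controls were left out; 23521 of the rest name 1 gene in the array's annotation, 1820 several and 15814 none. Each of 22180 genes was read from 1 such probe set, that of the highest mean over the 4 arrays where there were several (1082 genes). Genes were ranked within each array, and gene types were taken from RefSeq (GRCm38.p6). List medians were taken on each array and are given as mean ± SD over the 4 cultures. As 1 group was described, no test was run and no p-value is given; the number of arrays limits the precision. Calculations used Python 3.11.15, numpy 2.4.6, pandas 2.3.3 and matplotlib 3.10.9, and were tested on simulated data.

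The gene lists hold 1095 genes, of which 1005 were measured, and a gene can be in several lists. Members and lists were chosen with earlier results of these data known. Named genes were drawn from the following, of which not all are given: the marker genes, members of lists of up to 8 genes, the 8 highest and 4 lowest of longer lists, genes the study names for its neurospheres, the 25 highest protein-coding genes, the 12 with the widest range, sex-linked genes and the 5 highest microRNA genes. Outside this rule, and chosen after their values were seen, are the Hox genes of groups 10 to 13 other than Hoxd13, Zic1, Zic2, Mcidas, Egf, Erbb3, Fgf2, Fos, Ldha, Slc2a3, Phgdh, Vegfa and Ndrg1. Alternatives were averaging a gene's probe sets, other choices and sets of probe sets, other levels, other scalings and leaving out each culture.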

Additional observations from a re-analysis of the deposited data

Results flagged for a closer look

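Of 338 genes named and 48 list medians, 7 genes and 2 medians had 1 culture set apart, in that its gap to the nearest other culture, as a share of the range, passed Dixon's critical value for 4 samples; chance sets 1 culture apart in about 1 in 20 such groups of 4. In culture 4 the log2 signals of the microglial receptor gene Cx3cr1 (4.49), the ventral factor Nkx6-1 (5.83) and the ligand Wnt7b (7.16) were below those of the other cultures, and that of the cytokine inhibitor Socs1 (4.09) was above them. In culture 2 the glutamate receptor subunit Gria3 (8.44) and the kinase Pdk4 (4.87) were below the others, and in culture 3 the translation factor Eef2 (11.30). The median percentile of astrocyte genes was 90.2 in culture 2, below the other cultures, and that of serine, glycine and one-carbon genes was 82.4 in culture 3, above them. Among all 11848 genes above the nasal receptor level, 513 (4.33%) had 1 culture apart in this way, which was culture 4 for 199, culture 2 for 163, culture 3 for 81 and culture 1 for 70.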

How the results depend on the processing

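No paired analysis was possible because 1 group was described, with no test. Percentiles are unaffected by centring or rescaling an array. Leaving out any 1 culture could not move a list median by more than its SD over the cultures. Both the mean and that SD come from the same few values. The 12 list medians recomputed are therefore given as ranges only, and not as a test of stability. They lay at 85.5 to 86.5 for stem and progenitor genes, 55.3 to 55.7 for Hox genes and 68.8 to 71.5 for oligodendrocyte precursor genes. Astrocyte genes were at 91.7 to 92.5, neuron genes at 43.0 to 44.6 and ependymal and cilium genes at 46.4 to 47.2. Microglia genes were at 31.6 to 33.0, EGF family genes at 66.9 to 67.8 and glycolysis genes at 79.0 to 82.0. Cholesterol genes were at 89.9 to 91.0, respiratory chain genes at 91.2 to 91.7 and mitosis genes at 93.6 to 93.8. The genes above the level on all arrays left numbered 11923 to 12028, against 11848 with none left out. Fewer arrays had to pass there, so the count tends to rise by itself and is no test of stability either.

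Ranking among all probe sets, which include many with low signals and no gene name, put the medians at 88.9 for stem, 65.2 for Hox, 77.8 for oligodendrocyte precursor, 53.6 for neuron, 56.3 for ependymal and cilium, 41.8 for microglia, 75.8 for EGF family, 85.3 for glycolysis, 92.03 for cholesterol, 92.7 for respiratory chain and 94.3 for mitosis genes. Ranking among protein-coding genes put them at 83.9 for stem, 50.2 for Hox, 66.0 for oligodendrocyte precursor, 38.005 for neuron, 41.5 for ependymal and cilium, 27.9 for microglia, 62.9 for EGF family, 90.3 for respiratory chain and 92.8 for mitosis genes. With a gene's probe sets averaged, Hox genes were at 54.4, astrocyte genes at 84.2 and mitosis genes at 94.3; Pdk1 moved by 24.6 percentile points, the most of the named genes. With probe sets of several gene names used too, Hox genes were at 56.9, glycolysis genes at 84.5 and mitosis genes at 93.3; Chp1 moved by 40.1 percentile points there, the most of the named genes. The genes above the level numbered 7690 at the 99th percentile of the receptor genes, and 185 of the 226 named genes above the level on all 4 arrays were also above that one. The count over all genes, 11848 at the main level, thus also fell by more than 1.5 times. That level lowered the count of members above it by more than 1.5 times in 23 of 48 lists, so such a fall does not set a list apart. Among them were Sox factors (9 of 19), dorsoventral genes (8 of 30), IL-6 family genes (4 of 12), JAK, STAT and SOCS genes (9 of 18), cytokine receptors (8 of 18), other kinase receptors (9 of 27), hypoxia and creatine genes (8 of 15) and matrix genes (20 of 47). The spread between cultures was 0.127 to 0.143 log2 units under all alternatives run.

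Depth has no counterpart on these arrays: a gene under the level is not read, and signals near the top are compressed. Ranks between genes reflect probe binding as well as transcripts, and 1 array per culture leaves differences between cultures and between hybridizations together.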
